A study of Homo sapiens with 6 samples.

Results

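BCHE, PTPRM, CR2, SOAT2 and ANKRD30BL are 5 genes with low RNA levels in MOLT-4, a human line of T-cell acute lymphoblastic leukemia (T-ALL), whose RNA was close to absent after IKZF1, the gene of IKAROS, was targeted. They were chosen from the measured values: each had at least 1 FPKM (fragments scaled to transcript length in kilobases and to 1000000 mapped fragments) in every wild type library and under 0.1 FPKM in every IK-KO-labelled library. Of 60640 gene identifiers, 11758 had at least 1 FPKM in all wild type libraries, and 15 of these (0.128%) met the rule; the 5 genes are those of the 15 that were taken as genes known from other tissues. The difference between the groups is therefore a description throughout and was not tested. PolyA RNA was sequenced from 3 libraries of the CRISPR knockout control, called wild type, and from 3 libraries of cells labelled CRISPR KO Ikaros, called IK-KO. Both were cultured in RPMI1640 with serum and came from a supplier as an edited line and its control. More than a single knockout clone was blotted in the study, and the labels say neither which was sequenced nor whether the replicates are separate cultures. Effects of the edit therefore cannot be told apart from anything else that sets the lines apart, and the spread between libraries may be technical. In bulk RNA, fewer cells with a transcript and less of it per cell cannot be told apart either.

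The 5 genes do unrelated work. BCHE encodes butyrylcholinesterase, a secreted esterase that is made by the liver and hydrolyses choline esters, and that is also found in nervous tissue. PTPRM encodes a receptor-type protein tyrosine phosphatase of the type IIB group, whose extracellular part binds its own kind on neighbouring cells; it is known from endothelium and other adherent cells. CR2 encodes complement receptor type 2, which binds C3 fragments and joins the coreceptor complex of mature B cells, and which has also been described on a part of immature thymocytes. SOAT2 encodes the sterol O-acyltransferase of hepatocytes and enterocytes, which forms cholesterol esters in the endoplasmic reticulum. ANKRD30BL is an ankyrin repeat gene without an established function and with similar copies elsewhere in the genome, so fragments may have been assigned to it or to a copy. IKAROS is a zinc finger protein of lymphoid cells that binds sites with the core GGGAA and can repress or activate genes.

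The libraries were of like depth. Judged from the confidence bounds deposited with the FPKM of genes with 1 transcript, depth lay between 0.904 and 1.09 of the mean, with IK-KO replicate 1 the shallowest. The edit cannot be read from FPKM. IKZF1 RNA stood at 134, 124 and 105 FPKM in wild type replicates 1 to 3 and at 207, 260 and 207 FPKM in IK-KO replicates 1 to 3, so the transcript was higher and not lower where it was targeted. The study checked the loss of IKAROS by PCR and western blot, which FPKM cannot show, and the group is named here after its label, as the IK-KO-labelled libraries.

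To see whether the genes share a sequence upstream of their starts, the 250 bases before the RefSeq start (GRCh38.p14) were read for the 4 genes with an entry in the promoter table; SOAT2 has none. The sequences are given 5′ to 3′ on the strand of the gene, with GGGAA, or TTCCC for the other strand, in capitals. They lie at chr3:165837424-165837673 (minus strand) for BCHE, chr18:7567066-7567315 (plus strand) for PTPRM, chr1:207454078-207454327 (plus strand) for CR2 and chr2:132161956-132162205 (minus strand) for ANKRD30BL. All 4 RefSeq starts lie inside the deposited span of the gene. The windows of PTPRM and ANKRD30BL lie wholly within that span, and those of BCHE and CR2 in part. On the minus strand the deposited span of ANKRD30BL begins at 132257969, while its window begins at 132162205. That window therefore lies deep inside the deposited gene and may not be the region before the start in use.
BCHE: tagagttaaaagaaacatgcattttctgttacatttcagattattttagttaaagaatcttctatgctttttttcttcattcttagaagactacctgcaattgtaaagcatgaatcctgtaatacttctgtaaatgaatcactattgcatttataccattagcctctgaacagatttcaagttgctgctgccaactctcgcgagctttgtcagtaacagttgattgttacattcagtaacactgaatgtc
PTPRM: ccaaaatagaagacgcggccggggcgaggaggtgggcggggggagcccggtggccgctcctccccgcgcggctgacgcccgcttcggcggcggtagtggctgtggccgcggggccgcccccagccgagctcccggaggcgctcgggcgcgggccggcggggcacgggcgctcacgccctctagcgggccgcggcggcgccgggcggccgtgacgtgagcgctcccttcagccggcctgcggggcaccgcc
CR2: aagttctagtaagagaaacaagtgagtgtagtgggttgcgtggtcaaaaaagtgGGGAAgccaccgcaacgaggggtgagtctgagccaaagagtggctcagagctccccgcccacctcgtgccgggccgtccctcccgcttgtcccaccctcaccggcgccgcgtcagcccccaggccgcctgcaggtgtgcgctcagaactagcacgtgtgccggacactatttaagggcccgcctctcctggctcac
ANKRD30BL: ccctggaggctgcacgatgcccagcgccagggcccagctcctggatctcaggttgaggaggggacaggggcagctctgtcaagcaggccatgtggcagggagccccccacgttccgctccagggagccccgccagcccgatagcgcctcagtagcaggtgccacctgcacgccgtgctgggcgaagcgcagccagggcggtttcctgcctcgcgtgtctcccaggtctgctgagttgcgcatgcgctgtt
The 4 windows were unlike in base composition. The share of G and C was 33.2% for BCHE, 62.8% for CR2, 68.8% for ANKRD30BL and 81.6% for PTPRM, against a median of 58% over the 35116 promoters of the table. PTPRM held 42 CG dinucleotides and BCHE 2. The letters GGGAA occurred on either strand 1 time in the CR2 window and 0 times in the other 3, whereas 59.0% of all promoters in the table hold at least 1 match. The longer form TGGGAA, which contains GGGAA, occurred in none of the 4, against 20.8% of all promoters. A second RefSeq start of PTPRM, with the window chr18:7946625-7946874, has 1 match of GGGAA, and a second start of ANKRD30BL, with its window 3 bases away, has 0. The FPKM tables do not show which start was used, and a match is not a bound site.

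PTPRM (ENSG00000173482.16) spans 840 kb on chromosome 18 (7566782 to 8406861, GRCh38, plus strand). It had the highest level of the 5 genes. Its values were 6.05, 3.87 and 4.93 FPKM in wild type replicates 1 to 3 and 0.0105, 0 and 0.0191 FPKM in IK-KO replicates 1 to 3. Its mean was 4.95 ± 1.09 FPKM in wild type and 0.00986 ± 0.00955 FPKM in the IK-KO-labelled libraries (SD, n = 3). The groups lay far apart, and the wild type libraries differed among themselves by 1.56 times from lowest to highest, the widest range of the 5 genes.

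BCHE (ENSG00000114200.10) spans 64.6 kb on chromosome 3 (165772904 to 165837462, minus strand). Its values were 2.27, 3.10 and 2.46 FPKM in wild type replicates 1 to 3, 0.0208 FPKM in IK-KO replicate 2 and 0 in IK-KO replicates 1 and 3. The wild type mean was 2.61 ± 0.436 FPKM (SD, n = 3). Wild type replicate 2, the highest for BCHE, was the lowest for PTPRM.

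CR2 (ENSG00000117322.17) spans 35.7 kb on chromosome 1 (207454230 to 207489895, plus strand). Its wild type values were 2.41, 2.23 and 2.16 FPKM in replicates 1 to 3, with a mean of 2.27 ± 0.130 FPKM (SD, n = 3). In IK-KO replicates 1 to 3 it was listed at 0, 0.0123 and 0.0347 FPKM. CR2 varied least between the wild type libraries, with a coefficient of variation of 5.76%.

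SOAT2 (ENSG00000167780.12) spans 21.1 kb on chromosome 12 (53103486 to 53124535, plus strand). It had the lowest wild type level, at 1.15, 1.11 and 1.43 FPKM in replicates 1 to 3 and a mean of 1.23 ± 0.174 FPKM (SD, n = 3). In IK-KO replicates 1 to 3 it was listed at 0, 0.0584 and 0.0986 FPKM. The last value is the highest of any of the 5 genes in a IK-KO-labelled library and lies just under the limit of the rule.

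ANKRD30BL (ENSG00000163046.15) spans 110 kb on chromosome 2 (132147591 to 132257969, minus strand). Its RNA was measured at 2.06, 2.21 and 1.61 FPKM in wild type replicates 1 to 3, with a mean of 1.96 ± 0.311 FPKM (SD, n = 3). In the IK-KO-labelled libraries it was at 0 in replicates 1 and 3 and at 0.0753 FPKM in replicate 2.

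**Figure D1:**
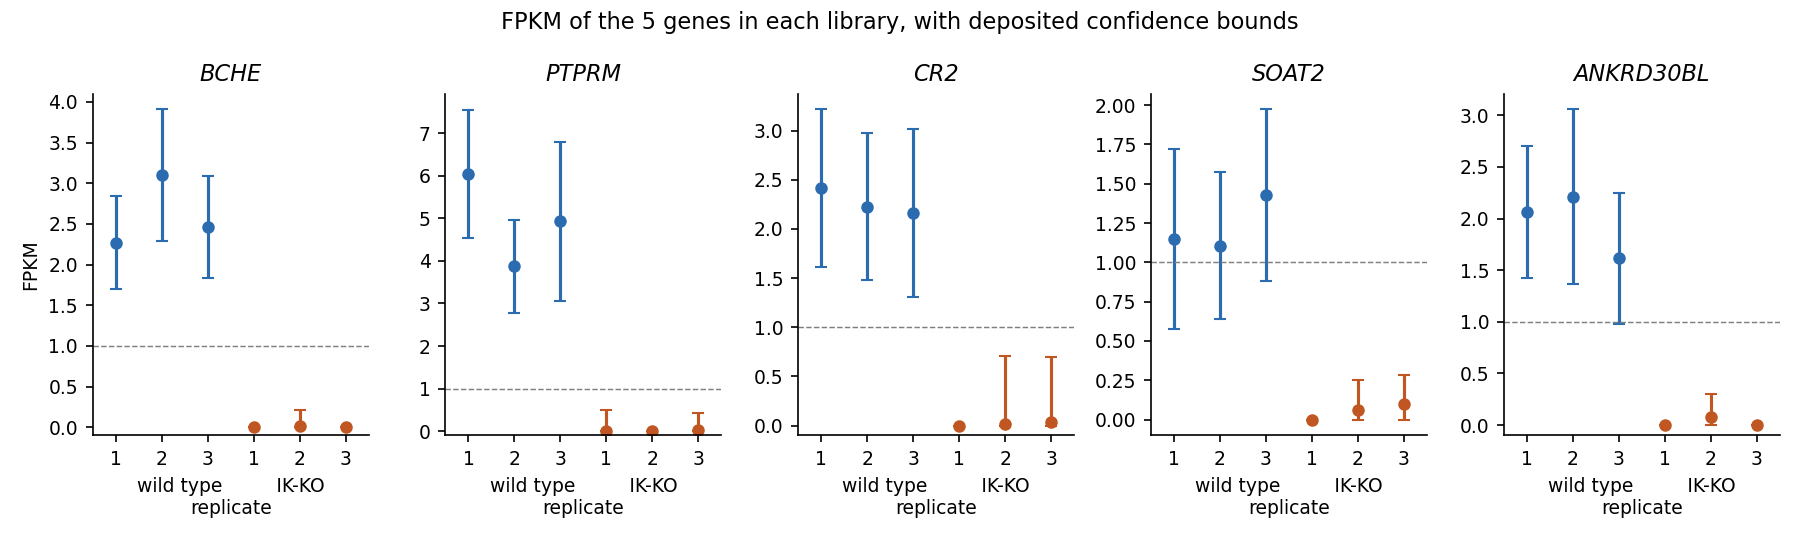
FPKM of each of the 5 genes (y axis, linear, a scale of its own in each panel) in wild type replicates 1 to 3 (blue) and IK-KO replicates 1 to 3 (orange); the bars are the confidence bounds deposited with each value and the dashed line marks 1 FPKM. As the rule required, all wild type points lie above the line and all IK-KO points lie at or near 0.

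In wild type the mean levels per length ran from PTPRM through BCHE, CR2 and ANKRD30BL to SOAT2. The ranges of BCHE and CR2 overlapped, as did those of CR2 and ANKRD30BL, so neither pair differed beyond its spread, whereas the ranges of PTPRM and BCHE and those of ANKRD30BL and SOAT2 lay apart. Within a library, BCHE and CR2 alone changed places, with CR2 the higher in replicate 1. Among genes on in every wild type library, as the rule required, all 5 were low. The median wild type mean of the 11758 genes on in every wild type library was 13.3 FPKM; PTPRM lay at the 24.1 percentile of these genes, BCHE at 11.3, CR2 at 8.99, ANKRD30BL at 6.64 and SOAT2 at 0.612. Among all genes with a wild type mean above 0 the 5 lay above the middle, from the 51.4 percentile for SOAT2 to the 64.3 percentile for PTPRM. Their spread between wild type libraries was that of other low genes. The coefficient of variation of the 5 genes over the wild type libraries lay between 5.76% and 22.0%, against a median of 14.99% over the 5783 genes with a wild type mean from 1 to 10 FPKM. The wild type library with the highest value differed between genes, as a description of the values that chose them. It was replicate 1 for PTPRM and CR2, replicate 2 for BCHE and ANKRD30BL and replicate 3 for SOAT2, and the 5 genes summed to 13.9, 12.5 and 12.6 FPKM in replicates 1 to 3.

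The residual values in the IK-KO-labelled libraries amount to very few fragments. Of the 15 values, 7 were listed at 0. In IK-KO replicate 1, PTPRM alone was above 0, in replicate 2 all but PTPRM were, and in replicate 3 PTPRM, CR2 and SOAT2 were; replicate 1 is also the shallowest library. The deposited bounds of genes with 1 transcript gave between 16.6 and 19.9 fragments per FPKM and kilobase. With the length of each gene's canonical GENCODE transcript, from 1564 bases for ANKRD30BL to 5595 bases for PTPRM, the wild type values correspond to an estimated 1509 fragments for PTPRM, 513 for CR2, 345 for BCHE, 169 for ANKRD30BL and 138 for SOAT2, summed over 3 libraries. In the IK-KO-labelled libraries the same estimate came to 3.10 fragments for PTPRM, 3.81 for CR2, 0.939 for BCHE, 2.21 for ANKRD30BL and 6.34 for SOAT2. Except for SOAT2 in IK-KO replicate 3, at an estimated 4.08 fragments, every value lay under the level of 3 fragments, which is from 0.0269 FPKM for PTPRM to 0.116 FPKM for ANKRD30BL. These are estimates and not counts; they say that RNA of the 5 genes was near the limit of detection at this depth, not that it was absent.

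On the log2(FPKM + 1) scale the difference, IK-KO minus wild type, was −2.54 for PTPRM, −1.84 for BCHE, −1.69 for CR2, −1.53 for ANKRD30BL and −1.08 for SOAT2. This scale compresses low genes: with 0.1 added in place of 1 the same differences were −5.50, −4.66, −4.36, −4.08 and −3.17, in the same order. Only PTPRM, BCHE and CR2 passed the filter of a mean of at least 1 FPKM over the 6 libraries. ANKRD30BL, with a mean of 0.993 FPKM, and SOAT2, with 0.640 FPKM, did not.

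The limits of the rule cut through a continuum. Just inside on the wild type side were TERT, the catalytic subunit of telomerase, with a lowest wild type value of 1.07 FPKM, SOAT2 with 1.11 and COL4A5, a basement membrane collagen chain, with 1.20. Just outside were GTSF1, with a lowest wild type value of 0.970 FPKM, the T-cell receptor segment TRBV7-9 with 0.952 and AL591895.1 with 0.938, all listed at 0 in every IK-KO-labelled library. On the other side, SOAT2, ANKRD30BL and TERT had the highest IK-KO values of the genes inside (0.0986, 0.0753 and 0.0413 FPKM). LOXL1, MYT1 and H2BC9 lay just outside, with highest IK-KO values of 0.138, 0.138 and 0.142 FPKM. In the opposite direction, 2 of the 11629 genes on in every IK-KO-labelled library (0.0172%) were under 0.1 FPKM in every wild type library.

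Genes whose levels run most alike were found by the mean absolute difference in log2(FPKM + 1) over the 6 libraries. BCHE, CR2 and ANKRD30BL were near one another and near GYPC, the gene of the red cell membrane protein glycophorin C, which was at 2.24, 2.23 and 1.66 FPKM in wild type and listed at 0 in each IK-KO-labelled library. GYPC differed on average by 0.04 from ANKRD30BL, 0.07 from CR2 and 0.13 from BCHE. For ANKRD30BL, MYT1 (0.05) and CR2 (0.10) came next. For CR2, ANKRD30BL (0.10) and BCHE (0.10) came next, and for BCHE, CR2 (0.10) was nearest and ANKRD30BL (0.15) came after GYPC. PTPRM ran closest to PMEPA1 (0.13) and CASP1 (0.17). SOAT2 ran closest to SLC25A13 (0.07), UAP1L1 (0.07) and DMD (0.10). The measure reflects level as much as pattern, and no test was made.

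Whether the loss extended to the surroundings of each gene was asked with a test across all genes, which the rule did not use for the neighbours. Of 162 genes within 500 kb of the 5 genes, 33 were tested and 7 were called by limma (adjusted p under 0.05), 4 of them higher with the IK-KO label and 3 lower. This is 21.2%, beside 19.9% of all 12652 tested genes (10.1% higher, 9.75% lower). Among the 3 called lower, ITGB7 passed the filter only through wild type. Their median log2 change was −0.02, beside 0.02 over all tested genes, and no other gene within 500 kb met the rule. The count changed with the libraries, as did the count over all tested genes. It was 2 of 31 when wild type replicate 1 was left out, beside 1720 of 12628 over all tested genes. Without wild type replicate 2 it was 4 of 32 (1737 of 12640 over all). Without IK-KO replicate 1 or 3 it was 4 of 33 (1810 of 12659 and 1800 of 12677 over all). With the replicate number as a block it was 3 of 33 (1805 of 12652 over all).

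BCHE and PTPRM lie in stretches with few transcribed genes. The only tested gene within 500 kb of BCHE was LINC01322, a long noncoding gene that overlaps BCHE on the opposite strand. It was at 1.90, 1.97 and 1.27 FPKM in wild type replicates 1 to 3, against 1.13, 0.781 and 0.913 FPKM in the IK-KO-labelled libraries, and its log2 change was −0.48 with an SE of 0.18, which was not called (limma adjusted p 0.106). The groups did not overlap, as in 39% of the tested genes. With means of 1.71 FPKM in wild type and 0.940 FPKM with the IK-KO label, LINC01322 passed the filter only through wild type. Since the sources used here do not give a strand setting, fragments of BCHE and LINC01322 in shared sequence cannot be told apart. The nearest tested genes outside were AC112491.1, 4343 kb away (limma adjusted p 0.218), and PDCD10, 1846 kb away (limma adjusted p 0.673). Beside PTPRM, RAB12, which encodes a GTPase of endosomes and lies 203 kb downstream, was at 5.72, 4.68 and 5.02 FPKM in wild type replicates 1 to 3, against 5.22, 4.06 and 6.67 FPKM in the IK-KO-labelled libraries (log2 change 0.02, SE 0.16, limma adjusted p 0.939). On the other side the nearest tested gene, the pseudogene RPL6P27, lay 1104 kb away and was not called (limma adjusted p 0.174).

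CR2 lies in the cluster of complement regulators on chromosome 1. CD55, 67.4 kb away on the side of lower coordinates, encodes an inhibitor of C3 convertases. It was at 2.95, 2.78 and 2.39 FPKM in wild type replicates 1 to 3, against 0.735, 1.15 and 1.43 FPKM in the IK-KO-labelled libraries, and fell by 0.83 on the log2 scale (SE 0.17, limma adjusted p 0.0161). CD46, 262 kb away on the other side, encodes a cofactor for the cleavage of C3b. It was at 31.9, 30.8 and 30.4 FPKM in wild type replicates 1 to 3, against 44.1, 36.1 and 55.5 FPKM in the IK-KO-labelled libraries, a change by 0.51 on the log2 scale with an SE of 0.14 (limma adjusted p 0.0443). Both neighbours thus had groups that did not overlap, as in 39% of all tested genes, and in opposite directions. The call of CD46 was weak: it was lost in 10 of 13 alternatives, and that of CD55 in 4. The other 4 tested neighbours, PFKFB2, YOD1, CD34 and MIR29B2CHG, were not called (limma adjusted p 0.0522 for PFKFB2, which was lower in every IK-KO-labelled library). PFKFB2 was called in 4 of 11 alternatives, with both other scalings and both looser filters (lowest limma adjusted p 0.0314). With means of 1.44 FPKM in wild type and 0.675 FPKM with the IK-KO label, PFKFB2 passed the main filter only through wild type. Its calls with the other scalings, under that filter, are therefore no evidence about the neighbours. CD34 was called when wild type replicate 3 was left out (limma adjusted p 0.0318).

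SOAT2 lies in a gene-dense part of chromosome 12 with 23 tested genes within 500 kb, of which 3 rose and 2 fell. IGFBP6, an inhibitor of insulin-like growth factors, ends 1.14 kb before SOAT2 on the same strand. It was at 2.45, 0.823 and 3.06 FPKM in wild type replicates 1 to 3, against 0.168, 0.853 and 0.132 FPKM in the IK-KO-labelled libraries, so the groups overlapped, and its log2 change, −1.13 with an SE of 0.35, was not called (limma adjusted p 0.0638). Without wild type replicate 2, the low one, IGFBP6 was called (limma adjusted p 0.0223). With means of 2.11 FPKM in wild type and 0.384 FPKM with the IK-KO label, IGFBP6 passed the filter only through wild type. That call is therefore no evidence about the neighbours. CSAD, 33.1 kb to the other side, was not called (limma adjusted p 0.565). The largest fall was in KRT1, an epidermal keratin gene 423 kb away, from 9.83, 8.98 and 8.63 to 0.868, 0.628 and 2.196 FPKM, a change by −2.25 on the log2 scale with an SE of 0.25 (limma adjusted p 0.00121). ITGB7, the beta chain of a gut homing integrin, lies 66.8 kb away and fell by 0.86 on the log2 scale (limma adjusted p 0.0198). With means of 1.77 FPKM in wild type and 0.524 FPKM with the IK-KO label, ITGB7 passed the filter only through wild type. Its call is therefore no evidence about the neighbours. RARG, a retinoic acid receptor gene 86.0 kb away, rose by 1.02 (SE 0.19, limma adjusted p 0.0110). The 2 smaller rises were C12orf10 (0.31) and PCBP2 (0.18), each of which lost its call in 7 of 13 alternatives. ITGB7 lost its call in 2 of 12, when wild type replicate 2 or IK-KO replicate 2 was left out.

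Near ANKRD30BL, the 2 tested genes AC093724.1 and C2orf27A, 423 and 380 kb away, were not called (limma adjusted p 0.414 and 0.204). MGAT5, the nearest tested gene on the side of higher coordinates, lies 1862 kb away. It makes branched N-glycans, and its RNA fell from 18.6, 15.3 and 20.8 to 9.50, 9.68 and 10.1 FPKM (log2 change −0.83, SE 0.11, limma adjusted p 0.00302).

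**Figure D2:**
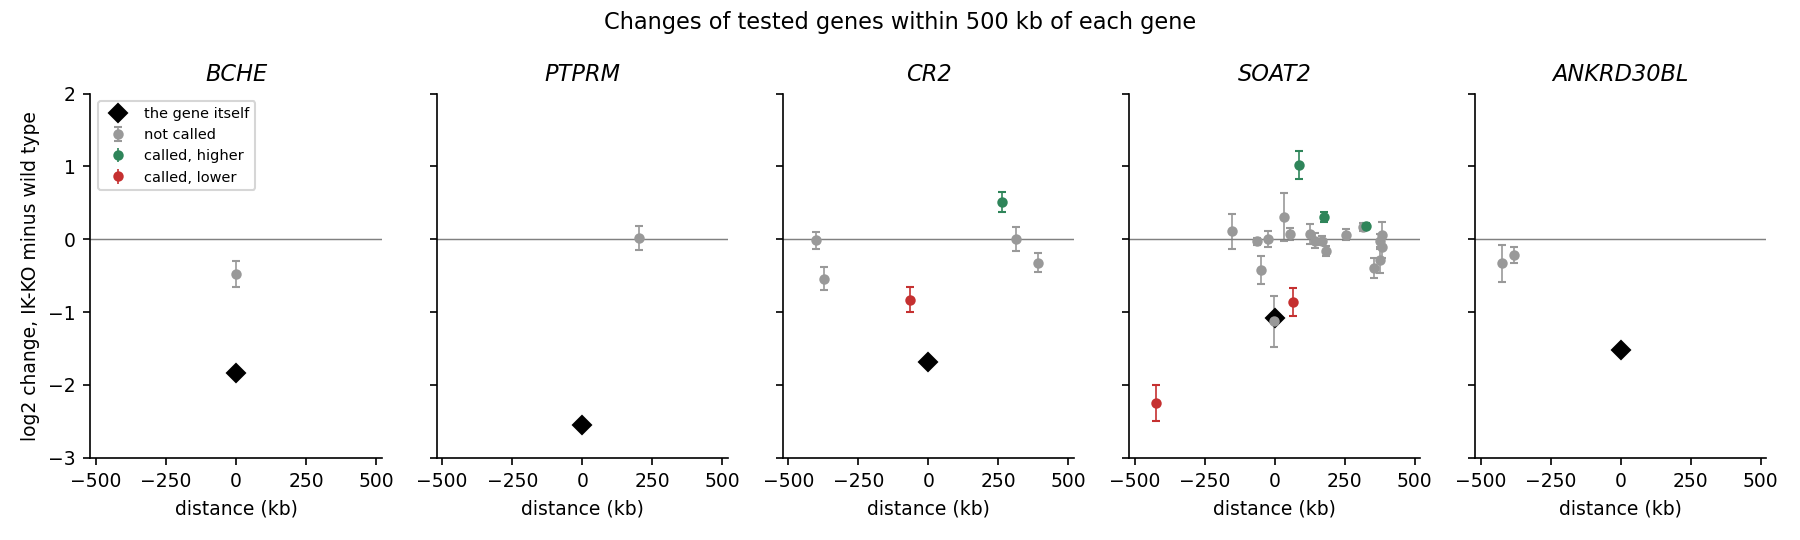
Log2 change, IK-KO minus wild type, with its SE (y axis) of tested genes against the distance in kb between their spans and that of each of the 5 genes (x axis, 0 for overlap); black diamonds are the 5 genes themselves, which were chosen for their fall, and colours mark the limma call. The 33 neighbours scatter around 0, with 4 higher and 3 lower calls, all near CR2 and SOAT2.

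Relatives, ligands and partners of the 5 genes were examined from 5 lists written from general knowledge. Of 98 genes, 42 were tested and 16 were called, 9 higher and 7 lower, or 38.1% beside 19.9% of all tested genes. Their median log2 change was 0.01. The count was 10 of 41 when wild type replicate 1 or 2 was left out, with 1720 of 12628 and 1737 of 12640 called over all tested genes.

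PTPRM was lost while its expressed relatives were higher. Of the 3 other type IIB phosphatases, PTPRK was at 25.5, 22.4 and 22.9 FPKM in wild type replicates 1 to 3, against 43.9, 40.6 and 40.5 FPKM in the IK-KO-labelled libraries, and rose by 0.80 on the log2 scale (SE 0.07, limma adjusted p 0.000555). PTPRU was at 4.86, 3.19 and 3.03 FPKM in wild type replicates 1 to 3, against 14.4, 16.7 and 17.4 FPKM in the IK-KO-labelled libraries, so that in wild type it was close to PTPRM. Its log2 change was 1.89 (SE 0.16, limma adjusted p 0.000432), and both calls held in all 13 alternatives. PTPRT was listed at 0 in every library. The FPKM of the 4 phosphatases together is thus carried by PTPRK in both groups. In the whole list of 15 phosphatases and junction partners, 11 were tested, 3 rose and 1 fell. The other rise was in CTNNA1, the catenin that links cadherins to actin (0.81), and the fall in BCCIP (−0.31). RACK1, a scaffold reported to bind PTPRM and the most abundant gene of the list, was not called (log2 change −0.08, limma adjusted p 0.309). CDH5, the endothelial cadherin, was at 0 in all libraries.

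BCHE was the only expressed cholinesterase. ACHE, which encodes acetylcholinesterase, was listed at 0 in every library. Of the 28 cholinergic genes, 19 were under 1 FPKM in every library and 5 were tested, with 0 higher and 2 lower. The 3 not called, CHRNA5, CHRNA9 and CHRNB1, had higher means with the IK-KO label, and the median log2 change was 0.17. CHRNA5 (means 5.95 and 8.77 FPKM) and CHRNA9 (0.819 and 2.28 FPKM) had groups that did not overlap, as in 39% of all tested genes. CHRNA9 passed the filter only through the IK-KO label. CHRNA3, a nicotinic receptor subunit, fell from 1.72, 1.71 and 1.32 to 0.407, 0.659 and 0.623 FPKM (log2 change −0.72, SE 0.17, limma adjusted p 0.0250). With means of 1.58 FPKM in wild type and 0.563 FPKM with the IK-KO label, CHRNA3 passed the filter only through wild type. Its call is therefore no evidence about the list. SLC44A1, a choline transporter and the most abundant gene of the list, fell by 0.40 (SE 0.10, limma adjusted p 0.0319). The call of CHRNA3 was lost in 4 of 11 alternatives, among them each that left out a IK-KO-labelled library, and that of SLC44A1 in 5 of 13.

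CR1 and FCER2 were not expressed with CR2. CR1, the other large complement receptor of the cluster, was at 0.00672 FPKM in wild type replicate 1 and at 0 elsewhere, and FCER2, the low-affinity IgE receptor that binds CR2, was at 0.0757 FPKM in wild type replicate 1 and at 0 elsewhere. The tetraspanin CD81, a coreceptor chain that most cells have, rose by 0.25 on the log2 scale (limma adjusted p 0.00809), and IFITM1, the most abundant of the list, was not called (log2 change −0.05, limma adjusted p 0.608). Of the 23 complement genes, 8 were tested, 2 rose (CD81, CD46) and 2 fell (CD55, CD59). The call of CD59 was lost in 6 of 13 alternatives.

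SOAT2 was a minor source of acyltransferase RNA. SOAT1, the form of most tissues, was at 17.03, 15.5 and 13.4 FPKM in wild type replicates 1 to 3, against 22.2, 17.2 and 19.5 FPKM in the IK-KO-labelled libraries. Its log2 change, 0.34 with an SE of 0.12, was not called (limma adjusted p 0.0930) and was called in none of 13 alternatives. Of the 18 genes of cholesterol ester formation, storage and export, 14 were tested, 4 rose and 2 fell. ABCA1, the exporter of cholesterol to lipid-poor apolipoproteins, rose from 1.23, 1.05 and 1.09 to 3.11, 2.81 and 2.61 FPKM, a change by 0.85 on the log2 scale with an SE of 0.13 (limma adjusted p 0.00547). ABCG1, which exports cholesterol to high density lipoprotein, rose by 0.37 (limma adjusted p 0.00294), and NPC2, which moves cholesterol out of lysosomes, by 0.38 (limma adjusted p 0.00860). The other rise, DGAT1 (0.29), lost its call in 9 of 13 alternatives. The falls were in PLIN2, a coat protein of lipid droplets (−0.78, limma adjusted p 0.00135), and in STARD3 (−0.43, limma adjusted p 0.00845). PLIN3, the most abundant gene of the list, was not called (limma adjusted p 0.114).

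ANKRD30BL was expressed without its nearest relatives: ANKRD30A and ANKRD30B were listed at 0 in every library. Of the 14 ankyrin repeat genes listed, 4 were tested (ANKRD26, ANKRD36, ANKRD36B, ANKRD36C) and 0 were called by limma, and 0 had an unadjusted p under 0.05. ANKRD36B, the most abundant, ranged from 8.86 to 15.9 FPKM over the 6 libraries and was not called (limma adjusted p 0.448).

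**Figure D3:**
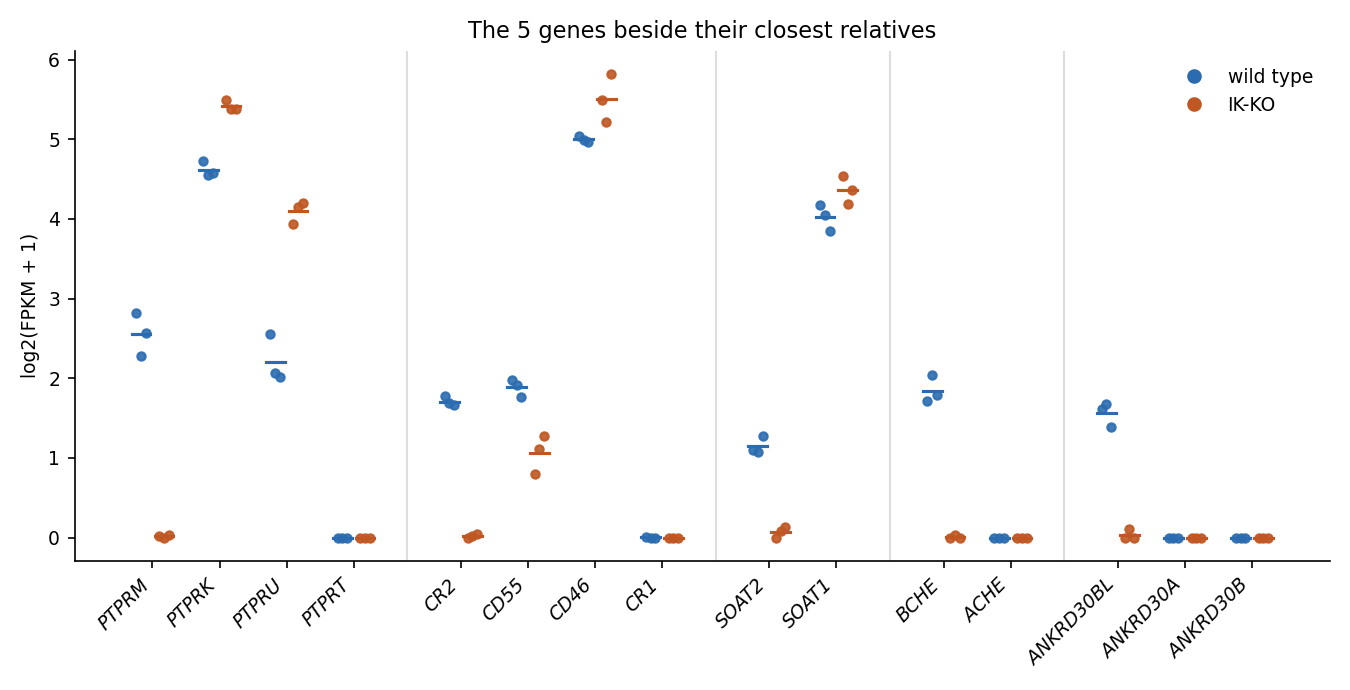
Levels as log2(FPKM + 1) (y axis) of the 5 genes and their closest relatives (x axis, grouped by family) in the 3 wild type libraries (blue) and the 3 IK-KO-labelled libraries (orange); points are libraries and lines their means. PTPRK and PTPRU lie higher in the IK-KO-labelled libraries while PTPRM is near 0 there, CD55 and CD46 move in opposite directions beside CR2, and PTPRT, ACHE, ANKRD30A and ANKRD30B are at 0 in all 6 libraries.

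Whether the cells carried other genes of the tissues in which the 5 genes are known was asked with marker lists. The T-lineage list was present in full: all 26 genes were tested, and they summed to between 6032 and 6422 FPKM in wild type and between 6856 and 7376 FPKM in the IK-KO-labelled libraries. Of them 9 rose and 11 fell, or 76.9% called beside 19.9% of all tested genes (10.1% higher, 9.75% lower), with the largest change in CD2 (−3.35 on the log2 scale, limma adjusted p 1.41e-06). CD4 was among the falls, with means of 2.76 FPKM in wild type and 0.384 FPKM with the IK-KO label. It passed the filter only through wild type, and the list was chosen with earlier results known. The share called is therefore only a description of the list. TRBC2, a constant region of the T-cell receptor beta chain, was the most abundant, with means of 3357 FPKM in wild type and 4118 FPKM with the IK-KO label.

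The lists of other tissues were nearly silent. Of 19 hepatocyte markers, 18 were under 1 FPKM in every library and 9 were at 0 in all, among them APOB, TTR, SERPINA1 and HNF4A; the list summed to between 0.917 and 1.44 FPKM in wild type and between 1.84 and 2.24 FPKM in the IK-KO-labelled libraries. Of 13 enterocyte markers, 12 were under 1 FPKM in every library and 8 at 0 in all, with sums from 0.664 to 1.25 and from 1.07 to 1.14 FPKM. Of 15 neural markers, 14 were under 1 FPKM in every library, with sums from 2.10 to 3.10 and from 1.39 to 1.51 FPKM. None of these 3 lists had a tested gene. The most abundant hepatocyte and enterocyte markers, CYP2E1 and LCT, reached at most 1.26 and 1.12 FPKM. CYP2E1 in wild type replicate 1 (1.15 FPKM) and LCT in wild type replicate 2 (1.12 FPKM) lay within the wild type range of SOAT2, 1.11 to 1.43 FPKM. The level of SOAT2 therefore does not set it clearly apart from these markers. BCHE lay above both markers in every wild type library, where APOB, TTR, SERPINA1 and HNF4A were at 0.

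For PTPRM and CR2 the picture was mixed. Of 16 endothelial markers, 13 were under 1 FPKM in every library, and the defining genes CDH5, VWF, TEK, EMCN, SOX17 and SOX18 were at 0 in all. The other 3 are also known in blood cells. ERG, an ETS factor, fell from 15.1, 16.95 and 15.2 to 4.24, 3.96 and 4.49 FPKM (log2 change −1.68, SE 0.09, limma adjusted p 7.56e-05). PECAM1, the most abundant, was not called (limma adjusted p 0.272), nor was FLT1 (limma adjusted p 0.0954). Of 21 B-cell markers, 13 were under 1 FPKM in every library and FCRL1, FCRLA and TNFRSF13B were at 0 in all. The 4 tested were BLK, which was not called, and VPREB1, IGLL1 and POU2AF1, which fell. VPREB1 and IGLL1 encode the surrogate light chain of early B cells. VPREB1 fell from 8.34, 9.23 and 9.19 to 1.16, 0.494 and 0.688 FPKM (log2 change −2.49, SE 0.16, limma adjusted p 0.000135). IGLL1, the most abundant, fell from 9.87, 11.1 and 7.25 to 5.03, 3.42 and 3.56 FPKM (log2 change −1.06, SE 0.18, limma adjusted p 0.00776). POU2AF1, a coactivator of immunoglobulin genes, fell by 1.26 on the log2 scale (limma adjusted p 0.0118). The B-cell list summed to between 25.0 and 28.9 FPKM in wild type and to between 9.75 and 11.5 FPKM in the IK-KO-labelled libraries. Most of that difference lay in VPREB1, IGLL1 and POU2AF1. Untested members at low levels went both ways. Wild type and IK-KO means were 0.732 and 1.08 FPKM for TNFRSF13C, 0.0961 and 0.254 for BLNK, 0 and 0.0323 for PAX5, and 1.14 and 0.457 for CD79A. These 4 were picked because their groups did not overlap. The share of such genes among untested genes was not computed, so they say nothing about the list. Over the lists of other tissues together, 7 of 84 genes were tested and 4 were called, all 4 lower, beside 9.75% of all tested genes called lower. VPREB1 and POU2AF1 passed the filter only through wild type, where they are high, so the share is no evidence about the lists. With the filter at a mean of 0.1 FPKM 5 of 29 were called, beside 2379 of 19206 over all tested genes. With no filter 5 of 55 were called, beside 2011 of 27286.

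**Figure D4:**
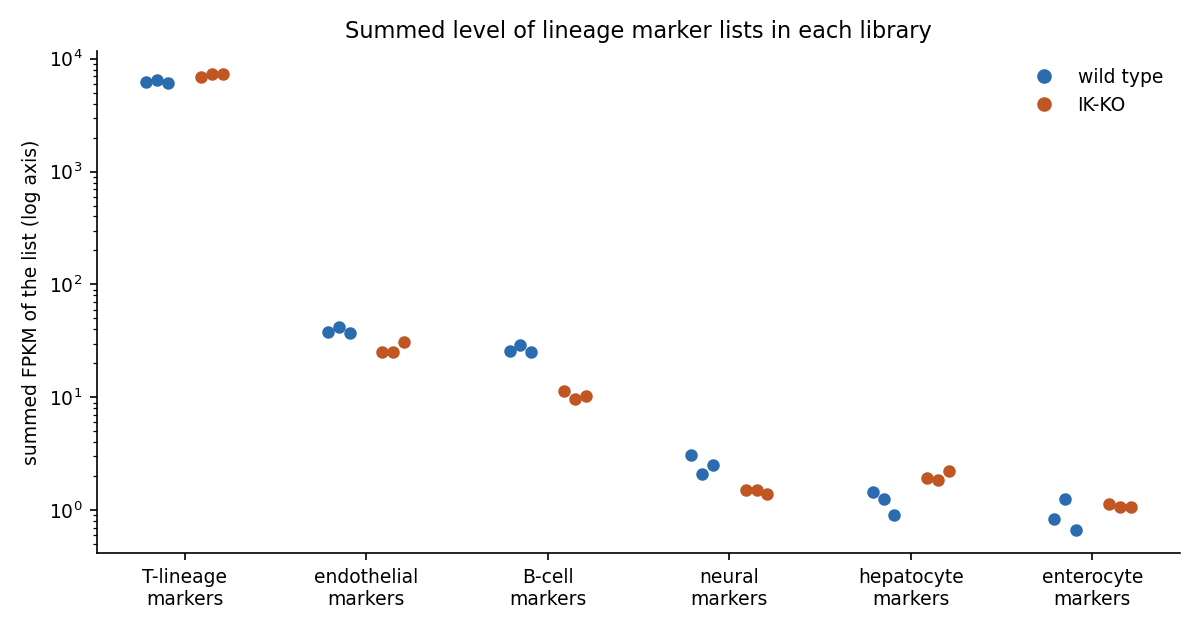
Summed FPKM of each marker list (y axis, log scale) in the 3 wild type libraries (blue) and the 3 IK-KO-labelled libraries (orange). The T-lineage sum stays at 6032 FPKM or more and is higher in the IK-KO-labelled libraries, as is the hepatocyte sum. The T-lineage rise lies mostly in TRBC2 (means of 3357 FPKM in wild type and 4118 FPKM with the IK-KO label). In that list 9 genes were called higher and 11 lower. The endothelial, B-cell and neural sums are lower there, for the B-cell list mostly through VPREB1, IGLL1 and POU2AF1. The enterocyte sums overlap. The neural, hepatocyte and enterocyte sums stay under 4 FPKM.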

How the data were processed

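PolyA RNA-seq of MOLT-4 was deposited as 1 gene table per library. The authors scaled the values to FPKM, each beside its confidence limits and a flag for failed estimates. The submitters' processing notes name hg38, STAR 2.6.1c, Cufflinks 2.2.1 and HOMER 4.10 without their roles; the annotation and strand setting are not given in the sources used here. Each table has 60752 rows with 60640 identifiers. All 49727 identifiers with 1 row that occur with the same version in GENCODE release 44 lie at its GRCh38 position. Rows of 1 identifier were summed (110 have several), and 29 identifiers not estimated in at least 1 library were left out.

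Genes with a mean of at least 1 FPKM over the 6 libraries (12652) entered a test by limma 3.58.1 (R 4.3.3) on log2(FPKM + 1) values (trend, two-sided, Benjamini-Hochberg adjustment over all tested genes) and called at an adjusted p under 0.05. limma stands in for the study's two-condition test because FPKM are not counts and each group has 3 libraries. On simulated data over 12652 genes, 20.5% of 200 genes changed by 0.5 on the log2 scale and 77.5% of 200 changed by 1 were called. Estimated fragments use the bounds of genes with 1 transcript of at least 1000 bases and 10 fragments. Neighbours lie within 500 kb.

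The 5 genes and all lists were chosen with earlier results of these data known. The text names the 5 genes, IKZF1, their closest relatives, the nearest tested genes, the called neighbour that changed most, the called gene that changed most and the most abundant gene of each list, the genes next to the limits of the rule and the 3 most alike; others were named after their values were seen. Some genes that fall under this rule or these lists are not reported here. Alternatives were the pseudocount, the filter, 2 other scalings, a replicate block, the limits, the distance and leaving out each library.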

Additional observations from a re-analysis of the deposited data

How the results depend on the processing

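Each count was recomputed under the alternatives. The number of called genes, 2515, lay between 1720 and 2794, within 1.5 times in all 13. Equal replicate numbers carried no pairing: across genes, their deviations had correlations of 0.0669, 0.0248 and 0.00546. Under the replicate block 1805 genes, 3 neighbours, 11 relatives and 4 markers of other tissues were called, against 7, 16 and 4 without it for the last 3. Within 250 kb in place of 500 kb, 4 of 17 tested neighbours were called. Leaving out each library in turn gave 2 to 5 called neighbours, 10 to 15 relatives and 3 to 5 markers, beside 1720 to 2042 over all tested genes. The 15 genes off in the IK-KO-labelled libraries became 33 with limits of 0.5 and 2 FPKM, 46 with limits of 0.1 and 0.5 FPKM, and 17 to 31 without each library in turn, the most without wild type replicate 2 (31) and replicate 3 (25). The first of these limits, which alone raises the wild type minimum, is met by 3 of the 5 genes. The other limits and leaving out a library only loosen a rule that the 5 genes already meet, so that they could not drop out. Of 29 named genes that were called, 19 kept their call in every alternative run and 10 lost it in at least 1. Of 35 not called, 3 were called in at least 1. No change that was called, in the main run or in the alternative, changed direction. Changes called in neither could change sign, as for RAB12 (log2 change from −0.13 to 0.17). Keeping rows not estimated was chosen after the data were seen and moved no count by over 1.5 times. FPKM carry no counts, so no count model was used, and values under 3 estimated fragments limit what can be said of the 5 genes in the IK-KO-labelled libraries.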
